A study of Homo sapiens with 3 samples.

Results

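The centromere and kinetochore genes examined here were 41 genes for centromere, kinetochore and chromosomal passenger proteins, chosen by symbol and found by Ensembl identifier among the 58333 genes of the deposited table. Each of the 41 was found once, and all 41 passed the filter on low values. The table came from poly(A)+ RNA-seq of Cal62, a human cell line from an anaplastic thyroid carcinoma, after transfection with a control siRNA (siControl) or with 1 of 2 siRNAs against ADAR1 (siADAR1 #1 and siADAR1 #2). ADAR1, encoded by ADAR, is an enzyme that converts adenosine to inosine in double-stranded RNA. No other agent or genetic change separated the groups, and each had 2 libraries, described in the study's methods as biological replicates. The 2 siRNAs were compared with the same siControl libraries, so the comparisons are not independent of each other. All cells came from 1 cell line, transiently transfected, so the values describe that line.

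At each cell division the centromere of a chromosome is marked by nucleosomes that hold the histone variant CENP-A. On this chromatin sits an inner layer of proteins, the constitutive centromere-associated network (CCAN), and on it the outer kinetochore, which binds spindle microtubules through the KNL1, MIS12 and NDC80 complexes. The spindle checkpoint signals from kinetochores without microtubules and holds back anaphase, while the chromosomal passenger complex corrects wrong attachments. Many of these genes are transcribed periodically, with peaks in late S phase to mitosis, and their messenger RNA is abundant in proliferating cells.

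The libraries held 30114840 to 50029763 reads on genes. With normalized counts, which are reads divided by a factor for each library, 3 reads corresponded to 2.81 to 4.39. The silenced gene was checked first. ADAR had 10015 and 11472 reads in siControl, 1420 and 1788 reads with siADAR1 #1, and 1467 and 1999 reads with siADAR1 #2, and it was called lower with each siRNA (log2FC −2.71 ± 0.30 (SE) and −2.35 ± 0.30). The remaining level did not pass the test between the siRNAs (log2FC 0.35 ± 0.30, adjusted p = 0.404). Markers of other cell types were low. CD3E was at 0 reads in every library, summed normalized counts of the 4 endothelial markers were 93.8 to 174, and those of the 4 fibroblast markers were 4.54 to 26.4. Of the blood and immune markers given here, PTPRC had at most 6.28 normalized counts and LYZ at most 9.35. CD68 had 245 and 417 normalized counts in siControl, 425 and 610 with siADAR1 #1, and 796 and 1566 with siADAR1 #2. The sum of the epithelial markers was high, at 74103 to 92785, 102317 to 106204 and 67785 to 77725 normalized counts in the same order of groups. KRT8 and KRT18 made up most of it. CDH1, in the same list, was low, with 210 and 39.8, 49.6 and 52.8, and 196 and 36.6 normalized counts in that order. Of the 12 thyroid markers 11 had over 3 reads in a library, but NKX2-1 was at 0 in all of them. PAX8, which made up most of their sum, had 13927 and 15868 normalized counts in siControl, 10272 and 15074 with siADAR1 #1, and 2542 and 5484 with siADAR1 #2. Mitochondrially encoded genes took 3.46% to 4.46% of the reads in siControl, 3.58% to 4.48% with siADAR1 #1 and 4.54% to 5.20% with siADAR1 #2. The part of these differences in the results for the kinetochore genes was not tested.

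Many genes of late cell cycle phases carry in their promoters a cell cycle genes homology region (CHR), at which transcription is held back in earlier phases, together with CCAAT boxes, which the activator NF-Y binds, while E2F sites are common in genes of the G1/S transition. RefSeq promoter windows of GRCh38.p14, each 300 bases long from 250 bases before the start, were held for 34 of the 41 genes, in 39 windows because some genes have more than 1 start. The table used here has no entry for MIS18A, CENPL, CENPH, CENPM, KNL1, BIRC5 and BUB3. The words searched on both strands were TTTGAA and TTTAAA for CHR, CCAAT for the CCAAT box, and TTTNNCGC and TTCNCGCC for an E2F-like word. A CHR word can overlap a CCAAT word (on its reverse strand), and the E2F-like words can overlap each other. The promoter stretches below show how differently these words fall among the genes, with every word in capitals. They are 105 to 120 bases long, written 5′ to 3′ on the strand of the gene, and lie before the start where no GENCODE exon covers them. CDC20 lies at chr1:43358861-43358980 (plus strand), HJURP at chr2:233854567-233854686 (minus), CENPF at chr1:214603065-214603184 (plus), ZWINT at chr10:56361274-56361393 (minus), CENPC at chr4:67545504-67545623 (minus) and SKA3 at chr13:21176553-21176657 (minus).
CDC20: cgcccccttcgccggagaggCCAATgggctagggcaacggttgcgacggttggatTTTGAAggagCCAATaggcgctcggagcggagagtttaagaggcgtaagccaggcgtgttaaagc
HJURP: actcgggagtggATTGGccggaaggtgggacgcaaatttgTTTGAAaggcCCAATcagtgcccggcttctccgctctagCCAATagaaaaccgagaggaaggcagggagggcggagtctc
CENPF: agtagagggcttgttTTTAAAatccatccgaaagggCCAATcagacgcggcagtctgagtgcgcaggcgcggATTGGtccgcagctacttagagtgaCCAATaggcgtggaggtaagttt
ZWINT: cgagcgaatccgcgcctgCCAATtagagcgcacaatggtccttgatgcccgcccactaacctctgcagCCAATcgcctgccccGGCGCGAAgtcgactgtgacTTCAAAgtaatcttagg
CENPC: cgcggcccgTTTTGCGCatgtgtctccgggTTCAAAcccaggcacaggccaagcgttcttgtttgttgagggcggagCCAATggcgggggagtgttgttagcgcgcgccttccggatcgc
SKA3: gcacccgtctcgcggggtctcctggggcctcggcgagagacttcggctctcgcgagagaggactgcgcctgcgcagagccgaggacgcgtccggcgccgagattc
The first 3 of these genes were called lower with siADAR1 #2 only, ZWINT was called lower with each siRNA, CENPC with neither, and SKA3 had the largest fall of the 41 genes with siADAR1 #2. The stretch of SKA3 holds none of the words, but a CHR word spans its start and is cut off by the end of the stretch.

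A CHR word was found in 20 of the 39 windows (51.3%), against 20.2% of the 22199 windows of protein-coding genes and 24.0% of all 35116 windows. CCAAT was found in 27 windows (69.2%, against 34.7% and 34.6%), and an E2F-like word in 14 (35.9%, against 13.0% and 10.7%). Both CHR and CCAAT were present in 14 windows (35.9%, against 7.98% and 9.27%). Among the 28 genes with a window that were called lower with siADAR1 #2, 16 had a CHR word and 20 had CCAAT, while of the 6 that were not, 2 and 4 had them. Of these 6, CENPC, NDC80, CENPP, CENPT and SKA2 were below siControl in all 4 siADAR1 libraries, as were 16.6% of all genes tested. CENPC and NDC80 are the 2 with a CHR word, and MIS12 was the gene whose groups overlapped. These shares are a description of the sequences, and a match is not a bound site.

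Levels per exon length (RPKM, from the recovered reads) spanned from 1.46 to 66.2 in siControl. ZWINT, which binds KNL1, was at the top with an RPKM of 66.2 ± 4.0 (SD, n = 2), followed by CDC20, the activator of the anaphase-promoting complex, at 55.3 ± 1.9 and by SKA2 at 44.5 ± 0.035. NSL1 (1.46 ± 0.023), CENPP (2.46 ± 0.48) and CENPC (3.05 ± 0.055) were the lowest. NSL1 and CENPC have long annotated exon models of 13867 and 8496 bases, by which their reads are divided. Within 1 complex the levels were unequal, as in the MIS12 complex, whose proteins assemble together: DSN1 had an RPKM of 27.0 ± 3.7, MIS12 of 11.8 ± 0.27, PMF1 of 6.62 ± 0.21 and NSL1 of 1.46 ± 0.023. In the middle of the order neighbours lay within their spread, such as OIP5 at 17.8 ± 0.089 and ZWILCH at 17.9 ± 1.1, or SPC24 at 16.0 ± 3.0, CENPN at 15.8 ± 0.99 and MAD2L1 at 15.4 ± 2.7.

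**Figure D1:**
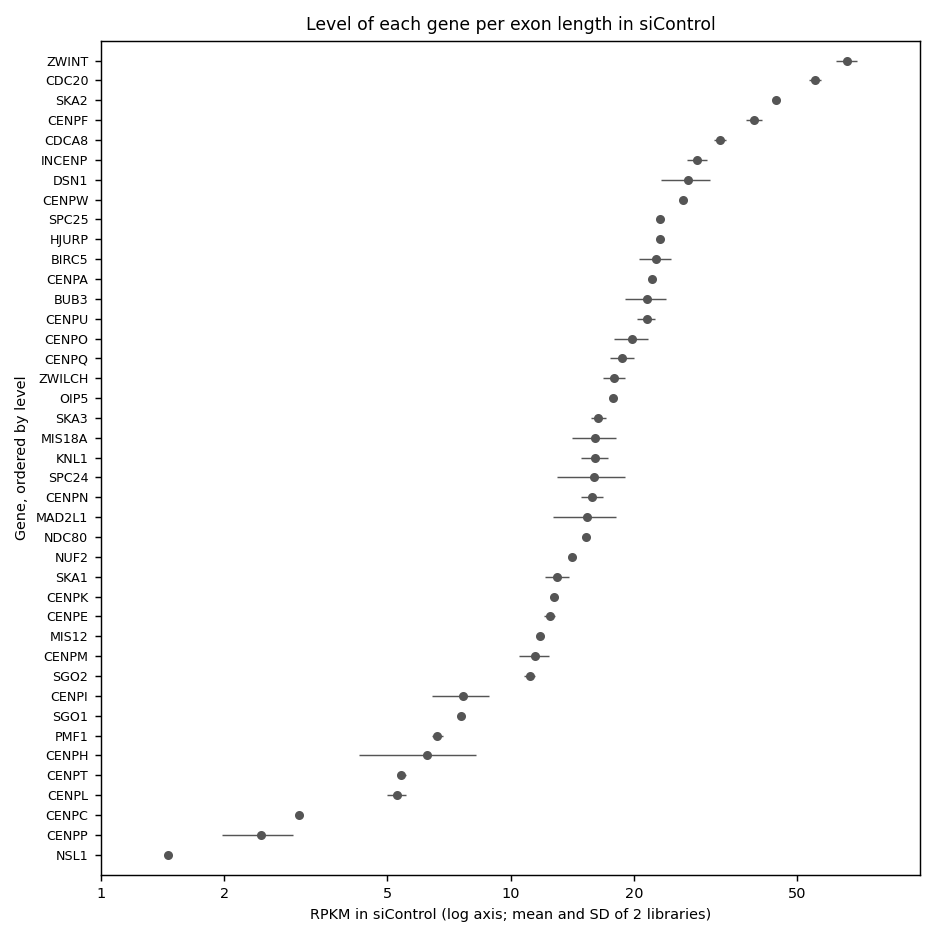
Level of each of the 41 genes per exon length in siControl (RPKM, log axis), ordered from lowest to highest. Points are the mean of 2 libraries and bars the SD. The levels run from 1.46 for NSL1 to 66.2 for ZWINT.

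The genes as a group took less of each library after ADAR1 silencing, and less with siADAR1 #2 than with siADAR1 #1. They held 0.302% and 0.320% of the reads in siControl, 0.263% and 0.280% with siADAR1 #1, and 0.201% and 0.213% with siADAR1 #2. The 3 groups did not overlap. Summed normalized counts were 161615 and 150872, 122910 and 134278, and 90555 and 93775 in the same order. In bulk RNA, fewer cells in the phases that express these genes and less RNA of them per cell cannot be told apart. For 29 of the 41 genes each of the 4 siADAR1 libraries was below the lower siControl library, as it was for 16.6% of all genes tested. Only BUB3 lay above in all 4 libraries (12% of all genes tested), and the groups overlapped in the other 11 genes.

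**Figure D2:**
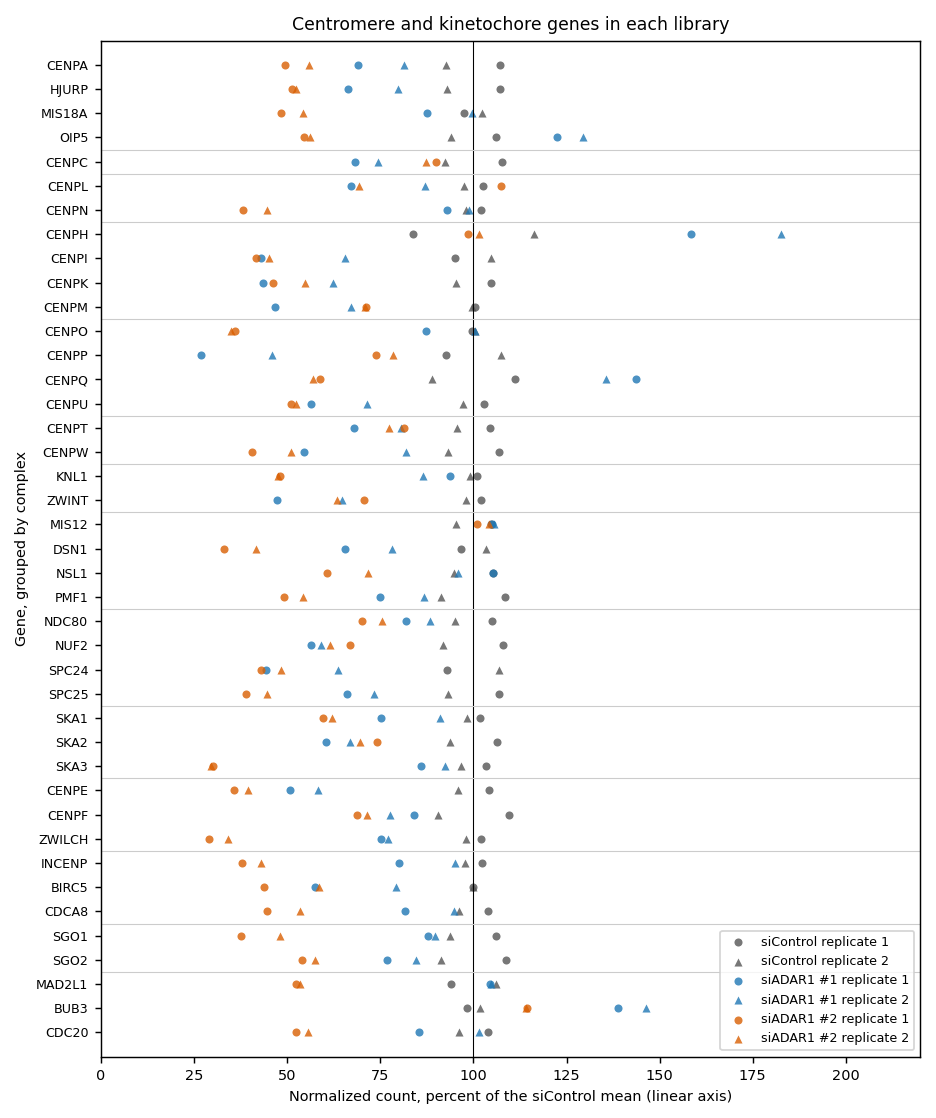
Normalized count of each of the 41 genes in each of the 6 libraries, as a percentage of the siControl mean (linear axis). Gray points are siControl, blue siADAR1 #1 and orange siADAR1 #2, with circles for replicate 1 and triangles for replicate 2, and gray lines part the complexes. In 29 genes each siADAR1 library is below the lower siControl library, and OIP5, CENPH, CENPQ and BUB3 have both siADAR1 #1 libraries well above the siControl mean.

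With siADAR1 #1, 11 of the 41 genes were called lower and 2 higher, where a call needed an adjusted p under 0.05 in limma and a log2FC beyond 0.5 in either direction. Of all 20858 genes tested, 10.6% were called lower and 6.18% higher. The median log2FC of the 41 genes was −0.31 and that of all genes −0.02, and 34 of the 41 lay below 0. The genes called lower were CENPI, CENPK, CENPM, CENPP, CENPU, ZWINT, NUF2, SPC24, SPC25, SKA2 and CENPE, and those called higher were CENPH and BUB3. This count rested on single libraries: without siControl replicate 1 no gene was called lower or higher, without siControl replicate 2 it was 3 lower and 1 higher, without siADAR1 #1 replicate 1 it was 4 and 1, and without siADAR1 #1 replicate 2 it was 13 and 0. Over all genes the calls in these 4 fits were, in the same order, 0.978% lower and 0.901% higher, 4.13% and 1.85%, 4.58% and 2.19%, and 12.3% and 5.33%. With an eBayes step without a trend the count was 2 lower and 0 higher, which were CENPE and CENPP, and 3.94% lower and 2.52% higher over all genes.

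More of the genes were lower with siADAR1 #2. With it 31 of the 41 were called lower and 0 higher, against 15.5% lower and 11.1% higher among all genes tested. The median log2FC was −0.92 for the 41 genes and −0.01 for all genes, and 38 of the 41 lay below 0. At an unadjusted p under 0.05, without a limit on fold, the number was 35 of 41 (8458 of all 20858 genes tested), and with siADAR1 #1 it was 24 (6790 of all genes). Without siControl replicate 1 the median log2FC was −0.83, and BIRC5, CENPF, CENPK, CENPW, NSL1, NUF2, SKA1 and ZWINT lost their call. In this fit, which rests on 1 siControl library, fewer of all genes tested were called lower as well. Without any other library the median stayed between −0.96 and −0.85. CENPF, CENPW, NSL1, NUF2 and ZWINT lost their call in at least 1 of these other fits. The 10 genes that were not called with siADAR1 #2 were CENPC, CENPL, CENPH, CENPM, CENPP, CENPT, MIS12, NDC80, SKA2 and BUB3.

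Only 8 of the genes were called lower with each siRNA: CENPI, CENPK, CENPU, ZWINT, NUF2, SPC24, SPC25 and CENPE. Among all genes tested, 3.41% were called lower with each. Another 23 were called lower with siADAR1 #2 only and 3 (CENPM, CENPP and SKA2) with siADAR1 #1 only. The difference between the siRNAs was tested in its own contrast, in which 21 of the 41 genes were called lower with siADAR1 #2 than with siADAR1 #1 and 1, CENPP, higher, against 16.1% and 16.7% of all genes tested. This difference was called for 18 of the 23 genes called lower with siADAR1 #2 only. It was not called for HJURP, CENPW, SKA1, CENPF and BIRC5. The median difference of the 41 genes was −0.53 with all libraries, −0.46 without siADAR1 #2 replicate 1 and −0.39 without siADAR1 #1 replicate 2. In both fits without a library, which rest on 1 library of a group, fewer of all genes tested were called lower as well. CENPM was called higher without siADAR1 #1 replicate 2, as was CENPP. CENPA, CENPE, CENPH, PMF1, SGO2 and NSL1 lost the call of a lower difference in at least 1 fit without a library. NSL1 lost it without siADAR1 #1 replicate 1 as well, a fit in which BIRC5, CENPI, CENPW, HJURP and SKA1 gained it.

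**Figure D3:**
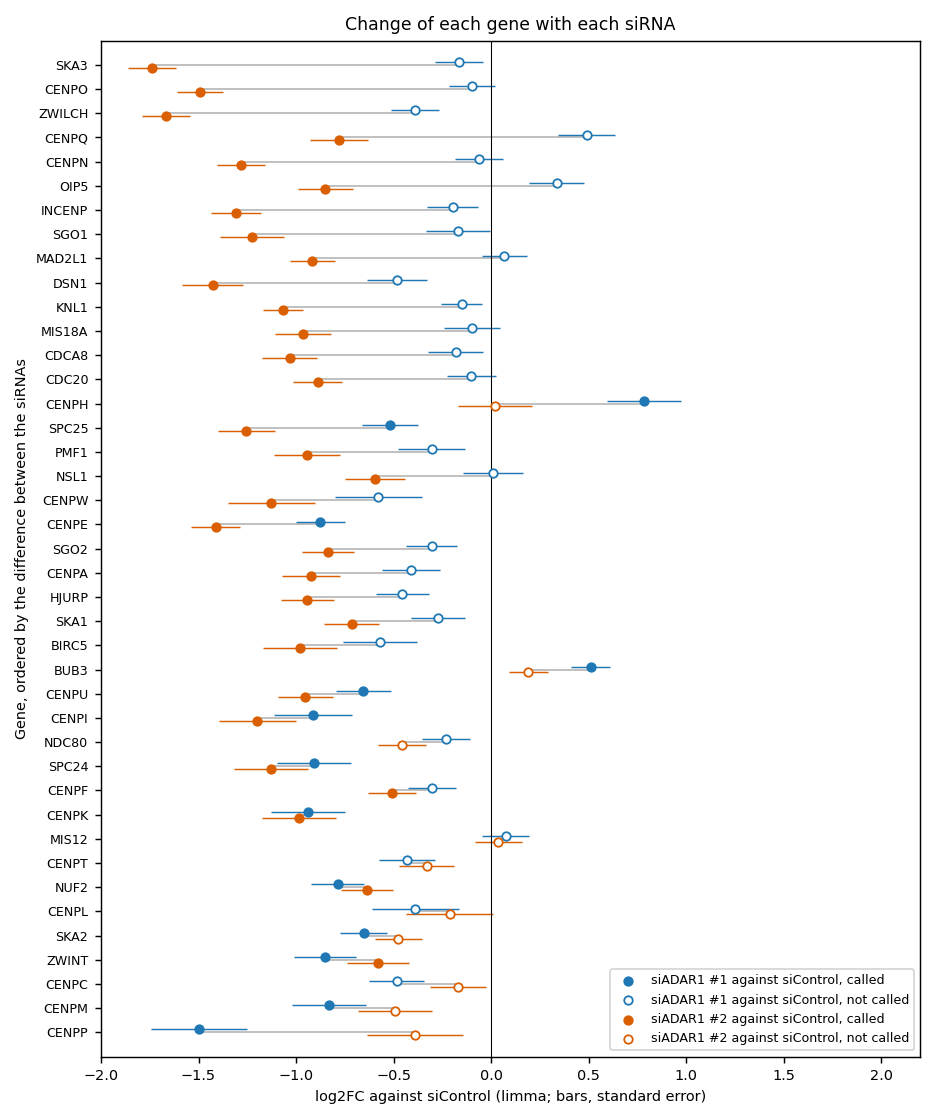
log2FC against siControl of each of the 41 genes with siADAR1 #1 (blue) and siADAR1 #2 (orange), ordered by the difference between the siRNAs. Bars are the standard error from limma, filled points were called and open points were not. SKA3 at the top has the largest difference toward siADAR1 #2 (−1.57) and CENPP at the bottom lies further down with siADAR1 #1.

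The 4 genes for the CENP-A nucleosome and its loading were all called lower with siADAR1 #2 (15.5% of all genes tested) and none with siADAR1 #1 (10.6%). CENPA, the histone variant itself, had 2333 and 2016 normalized counts in siControl, 1502 and 1767 with siADAR1 #1, and 1074 and 1216 with siADAR1 #2. Its 3 groups did not overlap, but the change with siADAR1 #1 did not pass the test (log2FC −0.41 ± 0.15, adjusted p = 0.097), whereas that with siADAR1 #2 did (−0.92 ± 0.15, adjusted p = 0.0032). HJURP, the chaperone that deposits CENP-A, had log2FC values of −0.46 ± 0.14 and −0.94 ± 0.14. MIS18A and OIP5 belong to the MIS18 complex, which prepares centromeres for new CENP-A. MIS18A had 1333 and 1398, 1197 and 1362, and 661 and 740 normalized counts, and OIP5 had 1141 and 1012, 1320 and 1394, and 587 and 603. In OIP5 the siADAR1 #1 libraries thus lay above siControl (log2FC 0.34 ± 0.14, not called) and the siADAR1 #2 libraries below (−0.85 ± 0.14). Of the OIP5 exon bases 92.5% are shared with genes on the opposite strand, among them NUSAP1 and OIP5-AS1. Whether the counting used strand is not given in the sources used here, so that reads of OIP5 and of these genes may not be told apart.

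Of the 13 CCAN genes in the set examined, which does not hold every CCAN gene, 5 were called lower and 1 higher with siADAR1 #1. With siADAR1 #2, 7 were called lower. Over all genes tested, 10.6% were called lower and 6.18% higher with siADAR1 #1, and 15.5% lower with siADAR1 #2. The share of CCAN genes called higher with siADAR1 #1 was 7.69%, near that of all genes. CENPC, which links CENP-A nucleosomes to the outer kinetochore, was called with neither siRNA (log2FC −0.48 ± 0.14, adjusted p = 0.0507, and −0.17 ± 0.14). CENPL and CENPN form a pair in which CENP-N reads the CENP-A nucleosome. CENPN had 4597 and 4423 normalized counts in siControl, 4189 and 4451 with siADAR1 #1, and 1715 and 2007 with siADAR1 #2, which put only siADAR1 #2 apart (log2FC −0.06 ± 0.12 and −1.28 ± 0.12). Of its exon bases 12.6% are shared with a gene on the same strand and 10.5% with genes on the opposite one. CENPL spread too widely for a call, with 1402 and 1331, 916 and 1187, and 1468 and 945 normalized counts, so that its siADAR1 #2 libraries lay on both sides of siControl.

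In the CENP-H-I-K-M group, CENPI, CENPK and CENPM were called lower with siADAR1 #1 and CENPH, a partner of CENP-K, was called higher. CENPH (ENSG00000153044, chr5:69189574-69210357) had 575 and 800 normalized counts in siControl, 1089 and 1255 with siADAR1 #1, and 678 and 697 with siADAR1 #2. Both siADAR1 #1 libraries lay above all others (log2FC 0.78 ± 0.19, adjusted p = 0.026), and those of siADAR1 #2 fell between the siControl libraries (0.02 ± 0.19). The siControl libraries of CENPH differed more than those of most of the other genes, as its RPKM of 6.24 ± 2.0 shows. CENPI had 2538 and 2797, 1145 and 1746, and 1114 and 1207 normalized counts, and CENPK had 2893 and 2632, 1199 and 1725, and 1277 and 1515. Both genes fell with each siRNA (CENPI −0.91 ± 0.20 and −1.20 ± 0.20, CENPK −0.94 ± 0.19 and −0.99 ± 0.19). The difference between the siRNAs was −0.29 ± 0.20 for CENPI and −0.05 ± 0.19 for CENPK, and neither passed the test. Leaving out a library gave differences from −0.59 to 0.018 for CENPI and from −0.31 to 0.21 for CENPK. CENPM fell with siADAR1 #1 (log2FC −0.83 ± 0.19), and with siADAR1 #2 it was at −0.49 ± 0.19 with an adjusted p of 0.0898.

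In the CENP-O-P-Q-U group, the difference between the siRNAs was called lower for CENPO and CENPQ and higher for CENPP, and was not called for CENPU. CENPP (ENSG00000188312, chr9:92325953-92620529) had 1057 and 1228 normalized counts in siControl, 307 and 525 with siADAR1 #1, and 844 and 896 with siADAR1 #2. It fell with siADAR1 #1 (log2FC −1.50 ± 0.25, adjusted p = 0.00775), the largest fall of the 41 genes with that siRNA, and not past the test with siADAR1 #2 (−0.39 ± 0.25). CENPO (ENSG00000138092, chr2:24793136-24822376) showed the opposite order, with 5452 and 5499 normalized counts in siControl, 4771 and 5493 with siADAR1 #1, and 1975 and 1913 with siADAR1 #2 (log2FC −0.10 ± 0.12 and −1.49 ± 0.12). CENPQ had 1833 and 1464, 2370 and 2233, and 968 and 937 normalized counts, so that siADAR1 #1 lay above siControl without a call (0.49 ± 0.15, adjusted p = 0.0541) and siADAR1 #2 fell (−0.78 ± 0.15). CENPU fell with each (−0.66 ± 0.14 and −0.95 ± 0.14). CENPP shares 43.2% of its exon bases with genes on the opposite strand, IPPK among them, and CENPO 31.6%, with ADCY3 and PTRHD1, so these values are uncertain in the way given for OIP5. CENPQ shares none. In the CENP-T-W pair, histone-fold proteins that recruit NDC80, CENPW fell with siADAR1 #2 (−1.13 ± 0.22) and CENPT was called with neither.

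In the outer kinetochore, 4 of the 10 genes of the KNL1, MIS12 and NDC80 complexes were called lower with siADAR1 #1 and 8 with siADAR1 #2. The shares of all genes tested were 10.6% and 15.5%. KNL1, the scaffold on which checkpoint proteins gather, had 8339 and 8174 normalized counts in siControl, 7733 and 7150 with siADAR1 #1, and 3959 and 3917 with siADAR1 #2 (log2FC −0.15 ± 0.10 and −1.07 ± 0.10). Its partner ZWINT had 8067 and 7732, 3738 and 5123, and 5582 and 5005 normalized counts, and fell with each siRNA (−0.85 ± 0.16 and −0.58 ± 0.16). The difference between the siRNAs passed the test for KNL1 (−0.92 ± 0.10, adjusted p = 0.000589). It did not for ZWINT (0.27 ± 0.16), whose libraries overlapped between the siRNAs.

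MIS12 was called with neither siRNA, with 1966 and 1787 normalized counts in siControl, 1968 and 1981 with siADAR1 #1, and 1893 and 1953 with siADAR1 #2 (log2FC 0.08 ± 0.12 and 0.04 ± 0.12). Its binding partners DSN1, NSL1 and PMF1 were called lower with siADAR1 #2. DSN1 had 3579 and 3825, 2428 and 2892, and 1224 and 1542 normalized counts, 3 groups that did not overlap (−0.48 ± 0.15, adjusted p = 0.068, and −1.43 ± 0.15). NSL1 stayed within the siControl range with siADAR1 #1 (0.01 ± 0.15), apart from 1 library at the upper siControl value, and fell with siADAR1 #2 (−0.60 ± 0.15). PMF1 fell with siADAR1 #2 (−0.94 ± 0.17) and shares 23.3% of its exon bases with the read-through gene PMF1-BGLAP, so the split of its reads is uncertain.

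The NDC80 complex, the main microtubule receptor of the kinetochore, had 3 of 4 genes called lower with each siRNA, against 3.41% of all genes tested. NUF2 had 2582 and 2197 normalized counts in siControl, 1349 and 1411 with siADAR1 #1, and 1598 and 1468 with siADAR1 #2 (log2FC −0.79 ± 0.14 and −0.64 ± 0.14). SPC24 had 2108 and 2426, 1006 and 1442, and 975 and 1097 (−0.91 ± 0.19 and −1.13 ± 0.19), and SPC25, its partner at the inner end of the complex, had 2282 and 1991, 1410 and 1568, and 835 and 954 (−0.52 ± 0.14 and −1.25 ± 0.14). In these genes every siADAR1 library was below the lower siControl library. SPC25 was near the fold needed for a call with siADAR1 #1, and kept that call in 4 of 16 alternatives. NDC80 itself was also lower in all 4 siADAR1 libraries, with 2855 and 2590, 2228 and 2406, and 1905 and 2055 normalized counts, but its log2FC of −0.46 ± 0.12 with siADAR1 #2 (adjusted p = 0.026) did not reach the fold needed for a call. The SKA complex follows shortening microtubules together with NDC80. SKA3 (ENSG00000165480, chr13:21153595-21176552) had 2549 and 2384 normalized counts in siControl, 2119 and 2279 with siADAR1 #1, and 745 and 729 with siADAR1 #2. This was 29.9% of the siControl mean with siADAR1 #2 and 89.1% with siADAR1 #1 (log2FC −1.74 ± 0.12 and −0.17 ± 0.12), and the difference between the siRNAs was the largest of the 41 genes (−1.57 ± 0.12, adjusted p = 0.000195). SKA1 fell with siADAR1 #2 (−0.72 ± 0.14). SKA2 fell with siADAR1 #1 (−0.65 ± 0.12) and stood at −0.48 ± 0.12 with siADAR1 #2, short of the fold for a call.

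Corona proteins cover the outside of kinetochores before microtubules attach. CENPE (ENSG00000138778, chr4:103105349-103198445), a kinesin that carries chromosomes toward the spindle equator, had 6470 and 5951 normalized counts in siControl, 3158 and 3623 with siADAR1 #1, and 2210 and 2456 with siADAR1 #2. It fell with each siRNA (log2FC −0.87 ± 0.13, adjusted p = 0.00516, and −1.41 ± 0.13, adjusted p = 0.0004). ZWILCH, a subunit of the RZZ complex that ZWINT helps to recruit, had 4447 and 4274, 3284 and 3365, and 1269 and 1484 normalized counts. Its groups were apart from each other, and the change was called with siADAR1 #2 (−1.67 ± 0.12) but not with siADAR1 #1 (−0.39 ± 0.12, adjusted p = 0.0652). CENPF had the most reads of the 41 genes, with 27023 and 22330 normalized counts in siControl, and its change with siADAR1 #2 was near the fold needed for a call (−0.51 ± 0.12).

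Of the chromosomal passenger complex, the 3 genes in the set examined were called lower with siADAR1 #2 and not with siADAR1 #1, as were both shugoshins. The shares of all genes called lower were 15.5% and 10.6% in the same order. AURKB, the kinase of the complex, was counted with the other kinetochore genes and was called lower with each siRNA. INCENP, the scaffold of the complex, had 6523 and 6227 normalized counts in siControl, 5098 and 6060 with siADAR1 #1, and 2413 and 2744 with siADAR1 #2 (log2FC −0.20 ± 0.13 and −1.31 ± 0.13). CDCA8, which encodes borealin, had 4076 and 3770, 3207 and 3721, and 1747 and 2098. BIRC5, which encodes survivin, had 4319 in both siControl libraries, 2480 and 3415 with siADAR1 #1, and 1891 and 2525 with siADAR1 #2. Its log2FC was −0.57 ± 0.19 with siADAR1 #1 (adjusted p = 0.0762), which was called lower without siADAR1 #1 replicate 2 and in the fit blocked by replicate number, and −0.98 ± 0.19 with siADAR1 #2. The libraries of the siRNAs overlapped, and the difference between them of −0.41 ± 0.19 was not called. SGO1 and SGO2, which protect cohesion at the centromere, had log2FC values of −1.23 ± 0.16 and −0.84 ± 0.13 with siADAR1 #2, and −0.17 ± 0.16 and −0.31 ± 0.13 with siADAR1 #1.

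Among the checkpoint genes, MAD2L1 and CDC20 fell with siADAR1 #2, and BUB3 was called higher with siADAR1 #1. MAD2L1, whose product holds CDC20 inactive while the checkpoint is on, had 3973 and 4489 normalized counts in siControl, 4421 and 4427 with siADAR1 #1, and 2212 and 2259 with siADAR1 #2 (log2FC 0.07 ± 0.11 and −0.92 ± 0.11). CDC20 had 5811 and 5370, 4770 and 5682, and 2928 and 3107, with a like pattern (−0.10 ± 0.13 and −0.89 ± 0.13). BUB3 (ENSG00000154473, chr10:123154402-123170467), which carries BUB kinases to KNL1, had 8646 and 8953, 12208 and 12870, and 10063 and 10031 normalized counts. All 4 siADAR1 libraries lay above both siControl libraries, with a log2FC of 0.51 ± 0.10 with siADAR1 #1 (adjusted p = 0.0133) and 0.19 ± 0.10 with siADAR1 #2 (adjusted p = 0.193). With siADAR1 #1 its log2FC was thus close to the fold needed for a call.

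**Figure D4:**
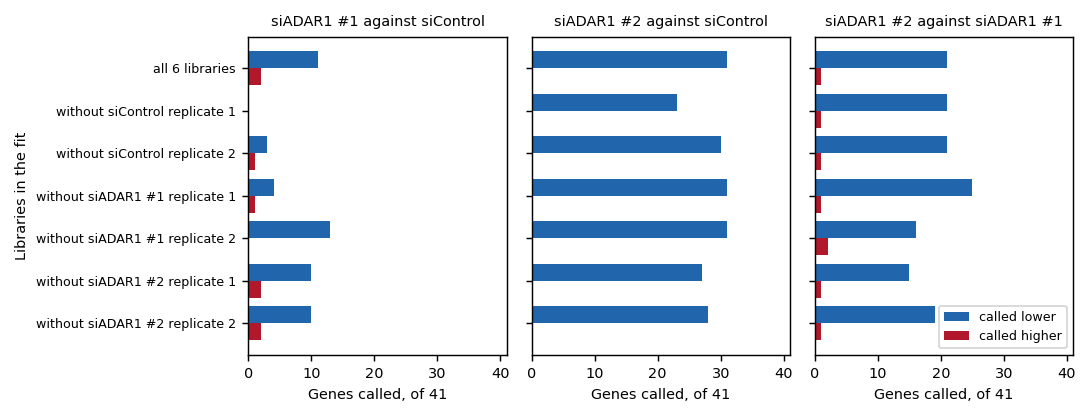
Number of the 41 genes called lower (blue) and higher (red) in each comparison, in the fit of all 6 libraries and in fits that lack 1 of them. Calls over all genes, not drawn here, changed between these fits as well. A fit that lacks a library rests on 1 library of that group. The range of the median log2FC of the 41 genes in these fits is given in the text.

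With the siADAR1 libraries taken as 1 group, 0 of the 41 genes were called in limma, as was 0% of all genes tested. At an unadjusted p under 0.05 the number was 17 of the 41 and 2916 of all 20858 genes tested. The smallest adjusted p of the 41 genes was 0.15, for CENPE, and their median log2FC was −0.66, against −0.03 for all genes. In this fit the differences between the siRNAs described above count as spread. With the average of the changes by the siRNAs taken from the fit with 3 groups, 27 of the 41 genes were called lower, against 11.1% of all genes tested.

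The genes were set beside other lists that share their biology, each taken without the 41 genes. These lists overlap, as AURKB, BUB1, TTK, KIF2C, RANGAP1 and CKAP5 are both among the other kinetochore genes and in the G2/M list. Of 31 other kinetochore genes, 8 were called lower and 3 higher with siADAR1 #1 (median log2FC −0.24), and 15 lower and 1 higher with siADAR1 #2 (median −0.46), with 7 called lower with each. The shares of all genes tested were 10.6% lower and 6.18% higher, 15.5% and 11.1%, and 3.41% lower with each. HASPIN, the kinase that marks centromeric histone H3, had 2095 and 2022 normalized counts in siControl, 871 and 1021 with siADAR1 #1, and 664 and 800 with siADAR1 #2 (log2FC −1.12 ± 0.15 and −1.49 ± 0.15). The mitotic kinase PLK1 had log2FC values of −1.17 ± 0.17 and −1.20 ± 0.17. AURKB, the kinase of the chromosomal passenger complex, fell with each siRNA (−0.68 ± 0.15 and −1.20 ± 0.15). The checkpoint gene BUB1B fell as well (−0.64 ± 0.12 and −1.10 ± 0.12), as did ITGB3BP, which encodes the CCAN protein CENP-R (−0.74 ± 0.18 and −1.05 ± 0.18). BOD1, a regulator of chromosome attachment, rose with each (0.86 ± 0.14 and 0.92 ± 0.14).

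Genes of the cell cycle phase lists were lower as well. Of 45 other G2/M genes, 15 were called lower with siADAR1 #1 and 41 with siADAR1 #2 (median log2FC −0.29 and −0.99), and of 42 S phase genes 23 and 36 (median −0.56 and −0.99). None of these genes was called higher with either siRNA. Among all genes tested, 10.6% were called lower and 6.18% higher with siADAR1 #1, and 15.5% and 11.1% with siADAR1 #2. Among the 41 centromere and kinetochore genes, 9 are in the G2/M list and 1, CENPU, in the S phase list. The 31 in neither list had 8 called lower (25.8%) and 2 higher (6.45%, near the share of all genes) with siADAR1 #1. With siADAR1 #2, 22 were called lower (71.0%), and the medians were −0.31 and −0.92. Thus the lower values were not limited to the kinetochore genes that the phase lists hold. Genes outside these lists can also be periodic, and which of the 31 are was not tested. Whether any list differs from another was not tested.

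**Figure D5:**
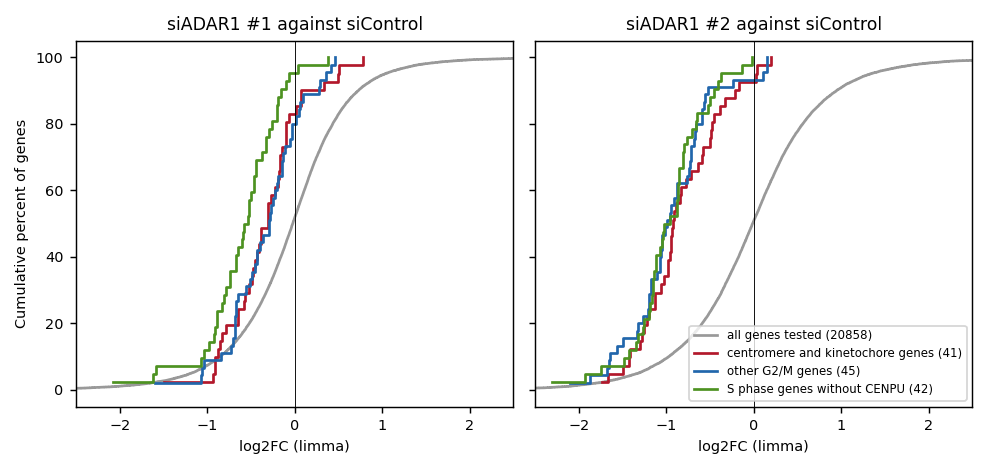
Cumulative percentage of genes by log2FC against siControl for siADAR1 #1 (left) and siADAR1 #2 (right). Red is the 41 centromere and kinetochore genes, blue 45 other G2/M genes, green 42 S phase genes and gray all 20858 genes tested. The red median is −0.31 on the left and −0.92 on the right, and that of all genes is near 0 in both panels.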

How the data were processed

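Poly(A)+ RNA of 3 transfections of Cal62 cells, with 2 libraries each, was sequenced with 75-bp paired-end reads. Per the study's methods, the authors examined reads with FastQC, trimmed them with Atropos, counted reads on genes with featureCounts and normalized with DESeq2 in bcbio-nextgen. The methods prefer gene counts estimated with Salmon for this normalization, but the deposited values return whole reads, and which counts went into them is not given. The build GRCh38 is named in the submitters' processing notes. The deposited values are log2 values, made by the authors with a variance-stabilizing curve shared by the 6 libraries, whose lowest value (0.347735697) stands for 0 reads. Inverting this curve returned whole reads (to within 0.1 read) at 100% of entries, and these gave the normalized counts and RPKM printed here. Of the columns, 0 were left unused. Symbols and exons came from GENCODE release 44, which matched 57830 identifiers and left 503 without a symbol. Of the blood and immune markers, 1 is not reported here. The 41 genes and the lists were chosen with earlier results of these data known.

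The log2 values were fitted with limma 3.58.1 in R 4.3.3 (eBayes with trend, two-sided, Benjamini-Hochberg over 20858 genes with a mean log2 value of at least 3.32, which is a normalized count of 7.62). The main fit held 3 groups, and another took the siADAR1 libraries as 1. The script was tested on simulated data. GEO's labels name 1 sample per transfection, and the columns carry replicate numbers. The replicates were not duplicates. P-values measure the spread between these libraries. Alternatives were other filters, scalings, transformations and spread models, a replicate block, and leaving out each library. Named besides the 41 genes and ADAR were the 6 other kinetochore genes with the largest log2FC among those called in 1 direction with each siRNA. RefSeq promoter windows were searched for motifs as a description.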

Additional observations from a re-analysis of the deposited data

Results flagged for a closer look

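The change against siControl differed between the siRNAs in 22 of the 41 genes, by the test of siADAR1 #2 against siADAR1 #1 in limma across all genes. In 21 of them the value was lower with siADAR1 #2. The differences in log2FC were −1.57 for SKA3, −1.40 for CENPO, −1.28 for ZWILCH, −1.27 for CENPQ, −1.22 for CENPN, −1.18 for OIP5, −1.11 for INCENP, −1.06 for SGO1, −0.98 for MAD2L1, −0.95 for DSN1, −0.92 for KNL1, −0.87 for MIS18A and −0.85 for CDCA8. Smaller ones were −0.79 for CDC20, −0.76 for CENPH, −0.74 for SPC25, −0.64 for PMF1, −0.60 for NSL1, −0.54 for CENPE, −0.53 for SGO2 and −0.51 for CENPA. CENPP was the exception, with a difference of 1.11. Among all genes tested, 16.1% were called lower and 16.7% higher in this comparison, so that differences between the siRNAs were common in both directions. ADAR itself differed by 0.35 ± 0.30 (SE), which did not pass the test, and the cause of the differences was not tested.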

How the results depend on the processing

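The calls with siADAR1 #2 were kept better than those with siADAR1 #1. Over the 41 genes and 16 alternatives, 587 of the values with siADAR1 #1, 620 of those with siADAR1 #2 and 610 of the differences between the siRNAs kept their direction and their side of the threshold. Another 51, 30 and 24 lost a call, 7, 1 and 11 gained one, and 11, 5 and 11 changed sign. Leaving out 1 library at a time gave 0 to 13 genes lower and 0 to 2 higher with siADAR1 #1 (median log2FC −0.43 to −0.24), 23 to 31 lower with siADAR1 #2, and 15 to 25 lower and 1 to 2 higher for the difference (median −0.63 to −0.39). In these fits the lone library of a group is assumed to vary like the others, and the calls over all genes changed as well. With the siADAR1 libraries as 1 group the median was −0.75 to −0.49 and 0 genes were called, but 27 were called lower with the average of the siRNA changes. eBayes without a trend gave 2 lower and 0 higher with siADAR1 #1. With libraries centred on their medians, which moved the median of all genes with siADAR1 #1 from −0.02 to 0.12 and their calls from 2212 lower and 1290 higher to 1706 and 1951, the median of the 41 genes was −0.16 with siADAR1 #1 and −0.66 for the difference. It was −0.79 with siADAR1 #2 after quantile normalization and −0.76 with voom, and −0.53 and −0.52 with the siADAR1 libraries as 1 group. voom moved the median of all genes with siADAR1 #2 to 0.16.

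The values that changed sign were small. With siADAR1 #1, centring gave CDC20 0.043, CENPN 0.083, CENPO 0.048 and MIS18A 0.048, quantile normalization gave MIS18A 0.025 and voom gave CENPN 0.022. Leaving out a library gave ranges of −0.23 to 0.024 for CDC20, −0.20 to 0.0046 for CENPO, −0.066 to 0.085 for NSL1 and −0.021 to 0.16 for MAD2L1. With siADAR1 #2, voom gave CENPC 0.0014, and the ranges were −0.22 to 0.26 for CENPH, −0.53 to 0.10 for CENPL and −0.032 to 0.11 for MIS12. For the difference, centring gave CENPT −0.028, quantile normalization gave MIS12 0.0079, and voom gave CENPK 0.045 and MIS12 0.045. The ranges were −0.14 to 0.49 for CENPL, −0.021 to 0.22 for CENPT, −0.59 to 0.018 for CENPI, −0.31 to 0.21 for CENPK and −0.48 to 0.040 for SPC24. The cause was not tested.

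With the replicate number as a block, 12 genes were lower (BIRC5 in addition) and 2 higher with siADAR1 #1, 31 lower with siADAR1 #2, 21 lower and 1 higher for the difference, and 0 with the siADAR1 libraries as 1 group. Over all genes tested, the block gave 12.2% lower and 7.34% higher with siADAR1 #1, and 16.6% and 12.3% with siADAR1 #2. For the difference it gave 17.0% and 17.9%, and with 1 group 0% were called. Deviations of same-numbered libraries had correlations of 0.106, 0.110 and 0.162 over 20858 genes, but with only 2 numbers a group they were taken to share only a number, as a pairing is not stated in the labels. With 312 reads or more for each gene in every library, counting error was small, and the 2 libraries a group limit the precision.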

Other observations

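CENPB, which binds a short motif in the repeats of centromeric DNA and was in the list of other kinetochore genes, was chosen for mention after its values were seen. It had 7600 and 7724 normalized counts in siControl, 1286 and 2245 with siADAR1 #1, and 7709 and 7508 with siADAR1 #2. It fell with siADAR1 #1 (log2FC −2.17 ± 0.23 (SE), adjusted p = 0.0026 in limma) and stood at −0.01 ± 0.23 with siADAR1 #2, and the difference between the siRNAs was called (2.16, adjusted p = 0.000465). Its order between the siRNAs was that of CENPP, opposite to that of the 21 genes lower with siADAR1 #2 than with siADAR1 #1.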
